A study of Mus musculus with 15 samples.

Results

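The genes described here are 9 that carry retinol (vitamin A alcohol), store it, convert it to retinal and back, break down retinoic acid or sense it: Rbp4, Ttr, Lrat, Rdh7, Rdh11, Dhrs3, Dhrs4, Cyp26a1 and Rxra. They were taken by symbol from a table of 18510 genes, and all 9 were found. RNA of mouse liver was sequenced in 15 libraries, all of wild-type (WT) genotype. The Alc UA group, 5 libraries, had an alcohol diet with UA, an abbreviation that the labels leave unexpanded, the Alc group, 5 libraries, an alcohol diet, and the Ctrl group, 5 libraries, a control diet. Nothing in the labels says whether each library is a separate mouse, so p-values measure the spread between these libraries only. Strain, age, sex, length of feeding and time of day at collection are not stated in the labels. Levels are FPKM, fragments mapped to a gene scaled by its transcript length and by the mapped fragments of the library, which allow levels of different genes to be compared per length.

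The liver is the main store of vitamin A in the body. Hepatocytes secrete retinol bound to retinol-binding protein 4 (Rbp4), which travels in plasma in a complex with transthyretin (Ttr). Stellate cells store retinol as esters made by lecithin retinol acyltransferase (Lrat). Short-chain dehydrogenases interconvert retinol and retinal, aldehyde dehydrogenases oxidise retinal to retinoic acid, and cytochromes of the Cyp26 family degrade it. Retinoic acid acts through retinoic acid receptors (RAR), which pair with retinoid X receptors (RXR). Rxra, the RXR most abundant in liver, also pairs with receptors for fatty acids, bile acids, oxysterols, xenobiotics and thyroid hormone.

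Rxra was higher in both alcohol groups than in Ctrl. Mean levels of Ttr and Dhrs3, a retinal reductase, were lowest in Alc UA, intermediate in Alc and highest in Ctrl. Their differences between Alc UA and Alc did not pass adjustment over all genes. Cyp26a1 was higher in Alc than in Ctrl. In Alc against Ctrl, the difference no longer passed in 16 of 26 alternative settings for Ttr, in 2 for Dhrs3 and in 2 for Cyp26a1. Differences were tested with limma on log2(FPKM + 1), a scale that understates changes of weakly expressed genes, with Benjamini-Hochberg adjustment over the 10959 genes that reached 1 FPKM in at least 5 libraries. All 9 members passed that filter. In Alc against Ctrl, 2 members rose and 2 fell at an adjusted p under 0.05, where 33.3% of all tested genes passed, 10.6% of them upward and 22.8% downward. In Alc UA against Ctrl, 1 member rose and 3 fell, where 42.6% of all tested genes passed, 10.5% upward and 32.1% downward. In Alc UA against Alc, 0 of 9 members passed, 2 did at an unadjusted p under 0.05, and 0.00912% of all tested genes passed, which is 1 gene. Median log2 fold changes of the members were -0.19 in Alc UA against Alc, -0.13 in Alc UA against Ctrl and -0.06 in Alc against Ctrl, beside -0.05, -0.16 and -0.12 over all genes tested. The 2 comparisons with Ctrl share the control libraries, and the 3 p-values of a gene are not independent.

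Summed over the genes tested and untested, the FPKM of a library came to between 551153 and 668832, and the number of genes at 1 FPKM or more to between 10119 and 11471, with the 3 groups overlapping in both. The sums averaged 590205 in Alc UA, 568776 in Alc and 627344 in Ctrl. Of the Ctrl libraries, only Ctrl 3, at 579106, lay within the range of the alcohol groups, whose highest sum was 603154. Markers of some other cell types and of the circadian clock differed with the diet. Markers of sinusoidal endothelial cells summed to 48.7 to 63.6 FPKM in Alc UA, 46.0 to 99.0 in Alc and 103 to 295 in Ctrl, with 8 of 8 lower in Alc UA than in Ctrl and 7 of 8 lower in Alc than in Ctrl. Circadian clock genes also differed, with 8 of 12 higher and 3 lower in each comparison with Ctrl, among them Dbp (57.9 to 94.0 FPKM in Alc UA, 62.9 to 126 in Alc and 3.09 to 6.65 in Ctrl). Of other marker lists, 5 of 5 erythroid and 5 of 5 tested lymphocyte markers were lower in Alc than in Ctrl, as were 1 of 4 cholangiocyte and 0 of 7 Kupffer cell and macrophage markers, while Alc UA was lower than Ctrl in 5 erythroid, 4 lymphocyte and 1 cholangiocyte marker and higher in 1 of 7 macrophage markers. That macrophage marker was Cd5l (1.22 ± 0.46, limma adjusted p = 0.0436), at 210.4 FPKM in Alc UA 3 and 45.55 to 59.4 in the other Alc UA libraries, and 0 of 7 passed without Alc UA 3, 4 or 5, without Alc 2 or 5 or without Ctrl 2, 3, 4 or 5. It was 4 of 7 with median-of-ratios factors or quantile normalization and 3 without Ctrl 1. The lymphocyte count in Alc UA was 2 without Alc UA 1 or 5 or without Ctrl 1 or 4, and the cholangiocyte count was 2 without Ctrl 2 and 3 without Ctrl 5. Within Ctrl, Ctrl 5 had the lowest endothelial, lymphocyte and macrophage marker sums and Ctrl 1 the highest, so results were also computed without both. Scaling moved the balance of calls in the comparisons with Ctrl. In Alc against Ctrl, 1157 genes were higher and 2497 lower as deposited, against 2206 and 1672 with median-of-ratios factors, 2049 and 2024 after quantile normalization and 1602 and 1294 with libraries scaled to the same sum. The splits in Alc UA against Ctrl were 1152 and 3521 as deposited, then 2738 and 2022, 2420 and 2430, and 1310 and 2540 under the same 3 scalings. Fold changes of members that passed are therefore also printed after subtraction of the median over the tested genes. Other fold changes are printed without it. The median was negative in each comparison, so their falls would be smaller and their rises larger after it. The part of these differences in the results was not tested, and in bulk tissue fewer cells of a type and less RNA per cell cannot be told apart.

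The upstream sequences of Cyp26a1, Rxra and Dhrs3 are shown because these 3 genes changed and are tied to retinoic acid signalling, Cyp26a1 and Dhrs3 as known targets of retinoic acid and Rxra as a receptor. They are the 250 bases before the annotated start in RefSeq on GRCm38.p6, which held 14 windows for 8 of the 9 members. Capitals mark half-sites of the retinoid receptor element, the sequence AGGTCA, and likewise AGTTCA, and likewise GGGTCA and likewise GGTTCA, on either strand. The Cyp26a1 window lies at chr19:37697558-37697807 on the plus strand, the Rxra window, the second of 2, at chr2:27709042-27709291 on the plus strand, and the Dhrs3 window, the first of 3, at chr4:144892577-144892826 on the plus strand.
Cyp26a1: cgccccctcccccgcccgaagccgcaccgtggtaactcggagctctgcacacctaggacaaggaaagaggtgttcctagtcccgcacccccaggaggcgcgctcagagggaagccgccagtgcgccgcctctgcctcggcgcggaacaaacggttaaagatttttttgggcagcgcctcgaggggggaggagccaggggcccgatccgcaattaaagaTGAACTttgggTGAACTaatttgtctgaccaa
Rxra: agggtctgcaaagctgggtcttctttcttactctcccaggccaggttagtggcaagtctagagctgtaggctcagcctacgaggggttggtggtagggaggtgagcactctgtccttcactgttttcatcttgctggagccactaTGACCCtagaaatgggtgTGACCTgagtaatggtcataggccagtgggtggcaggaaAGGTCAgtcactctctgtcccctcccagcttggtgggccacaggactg
Dhrs3: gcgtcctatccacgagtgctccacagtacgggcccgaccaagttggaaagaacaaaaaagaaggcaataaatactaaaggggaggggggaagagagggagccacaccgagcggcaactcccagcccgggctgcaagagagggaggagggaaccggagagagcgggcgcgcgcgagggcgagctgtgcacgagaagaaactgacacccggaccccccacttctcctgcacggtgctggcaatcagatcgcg

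A DR5, which is a pair of half-sites in the same orientation with 5 bases between them, is the classical element bound by RAR and RXR together. The Cyp26a1 window held one, at bases 32 to 16 before the start and read on the strand opposite to the gene. Of the 14 windows of members, 1 held a DR5, 0 held the pair with 1 or 2 bases between and 7 held a half-site. Over 32851 windows of the same length, 0.0883% held a DR5, 0.164% a pair with 1 base between, 0.174% a pair with 2 bases between and 38.6% a half-site. The Rxra window shown held 3 half-sites and its other window 0, and the Dhrs3 windows held 0. Rarb, a receptor gene known for a DR5 in its promoter and not a member, held one at bases 53 to 37 before its start (window chr14:16575477-16575726, minus strand). Both elements are printed 5′ to 3′ on the strand on which the half-sites read as listed.
Cyp26a1 element: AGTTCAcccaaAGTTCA
Rarb element: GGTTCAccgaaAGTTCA
These matches describe the letters of the windows and were not related to any measure of binding.

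Ordered by mean level over the 15 libraries, the members ran from Ttr at 5465 and Rbp4 at 4592 FPKM through Rdh7 at 822, Dhrs4 at 147, Rxra at 100.3 and Dhrs3 at 63.5 to Rdh11 at 5.84, Lrat at 2.85 and Cyp26a1 at 1.86. The range of Rdh7 met neither of its neighbours in that order. The ranges of Ttr and Rbp4 overlapped, as did those of Dhrs4 and Rxra, Rxra and Dhrs3, Rdh11 and Lrat, and Lrat and Cyp26a1. Cyp26a1 reached 1 FPKM in 13 of 15 libraries and the other 8 members in all 15.

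**Figure D1:**
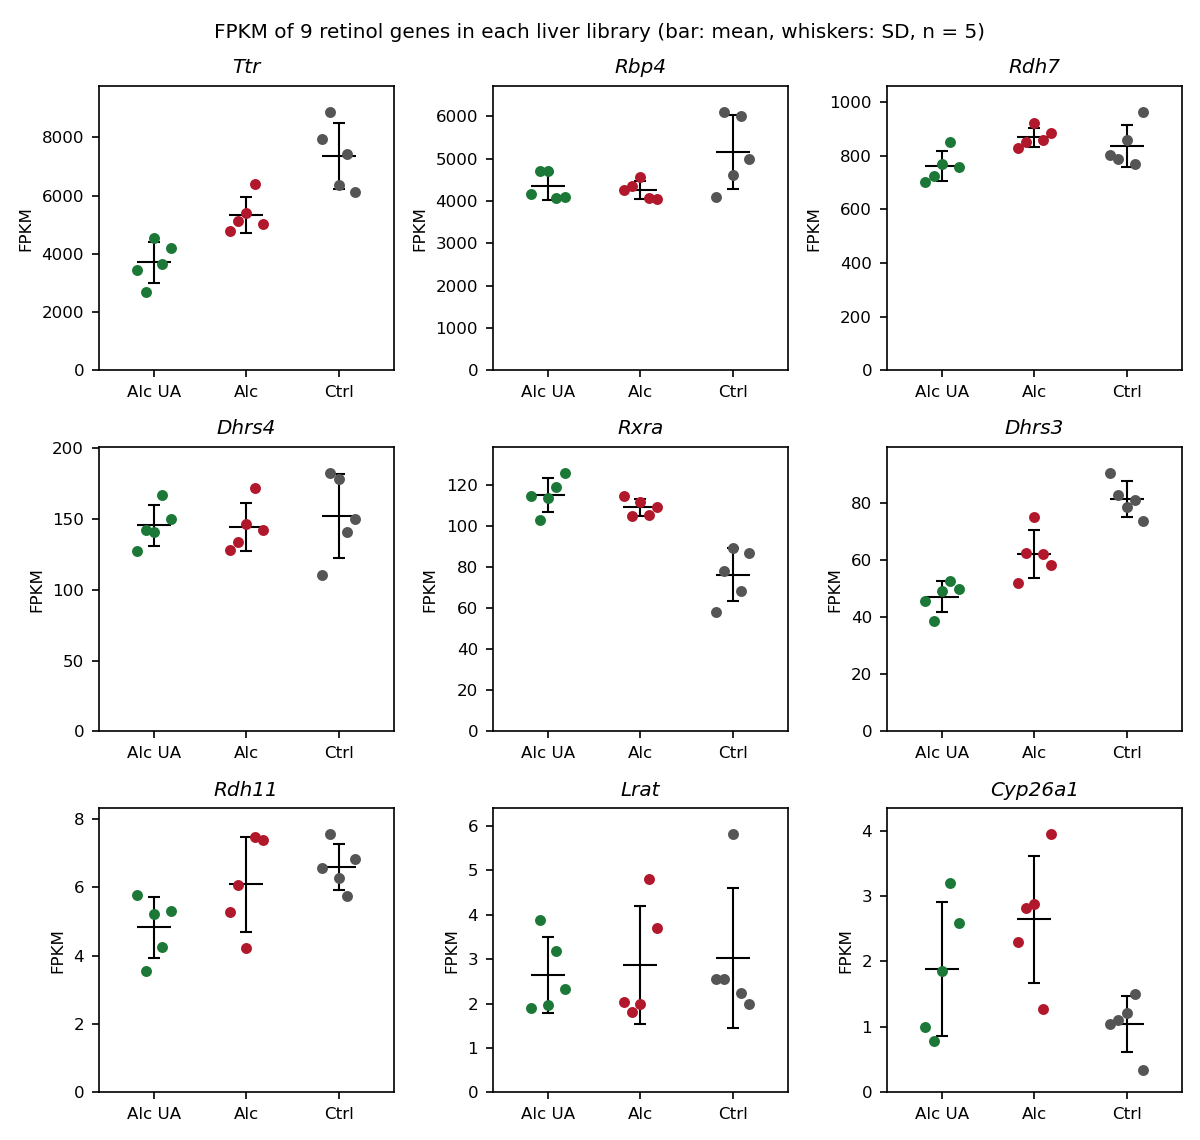
FPKM of each of the 9 genes (vertical axes, linear from 0) in the 5 Alc UA, 5 Alc and 5 Ctrl livers, with 1 point per library, a bar at the mean and whiskers of 1 SD. Rxra lies between 103 and 126 FPKM in Alc UA and between 105 and 115 in Alc, above the 58.4 to 89.2 of Ctrl, and Dhrs3 and Ttr lie lowest in Alc UA.

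The carriers of retinol came first in abundance. Ttr, the plasma partner of retinol-binding protein and a carrier of thyroxine, was at 3456, 2691, 4537, 3659 and 4194 FPKM in Alc UA, 4781, 5115, 5391, 6389 and 5022 in Alc, and 7939.5, 8873, 6374, 7426 and 6124 in Ctrl. All 5 Alc UA libraries lay below all 5 Alc and all 5 Ctrl libraries, and Alc and Ctrl overlapped only through Alc 4, which exceeded Ctrl 3 and Ctrl 5. Group means were 3707 ± 711 in Alc UA, 5339 ± 626 in Alc and 7347 ± 1132 in Ctrl (SD, n = 5 each). Ttr fell in Alc UA against Ctrl (log2 fold change -0.996 ± 0.16, with the SE here and after other fold changes, and -0.83 relative to the median of tested genes, limma adjusted p = 0.000395), and this call was kept in all 26 alternative settings. Against Alc, the Alc UA difference of -0.54 ± 0.16 did not pass over all genes (limma adjusted p = 0.672, unadjusted p = 0.00454), although the 5 libraries of each group did not overlap. Separation of this kind was found in 1 of 9 members and in 1.18% of all tested genes in that comparison. Hepatocyte marker sums were 38199 to 57291 FPKM in Alc UA, 51643 to 67060 in Alc and 54613 to 70350 in Ctrl, with 2 of 8 markers (Apoa1 and Apoa2) lower in each comparison with Ctrl, and their part in the Ttr values was not tested.

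Ttr also passed in Alc against Ctrl, with a log2 fold change of -0.45 ± 0.16 (-0.33 relative to the median, limma adjusted p = 0.0435). This call was lost in 16 of 26 settings, at adjusted p from 0.0526 to 0.554. Among them were all 3 other scalings. The fold change was -0.16 after quantile normalization, -0.28 with median-of-ratios factors and -0.31 with libraries scaled to the same sum. The call was also lost without the filter on low values and with only the 2 groups compared. Excluding Alc UA 1 or 4, Alc 1, 2, 3 or 5, or Ctrl 1, 2 or 4, one at a time, lost it too (adjusted p from 0.0526 to 0.1095). So did the exclusion of Ctrl 1 and Ctrl 5 together (-0.50, adjusted p = 0.05575).

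Rbp4 encodes the plasma carrier of retinol that hepatocytes secrete. It was at 4175, 4711, 4717, 4077 and 4104 FPKM in Alc UA, 4265, 4348, 4556, 4061 and 4058 in Alc, and 4088, 6107, 4606, 6015 and 4989 in Ctrl. Ctrl 2 and Ctrl 4 were the highest and the 3 groups overlapped. The log2 fold change was -0.23 ± 0.13 in Alc UA against Ctrl (limma adjusted p = 0.177), -0.26 ± 0.13 in Alc against Ctrl (0.143) and 0.03 ± 0.13 in Alc UA against Alc (0.979). With library weights both comparisons with Ctrl passed (-0.41, adjusted p = 0.00937, and -0.43, adjusted p = 0.00286), while the sign turned with median-of-ratios factors in Alc UA against Ctrl and with quantile normalization in Alc against Ctrl.

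The ratio of the 2 carrier transcripts within a library does not change when a library is scaled by a single factor. Rbp4 per Ttr averaged 1.22 ± 0.31 in Alc UA, 0.806 ± 0.0999 in Alc and 0.7101 ± 0.122 in Ctrl (SD, n = 5 each). Every Alc UA library, at 0.978 to 1.75, lay above every Alc library, at 0.636 to 0.892, and every Ctrl library, at 0.515 to 0.815. Rbp4 exceeded Ttr in 4 of 5 Alc UA libraries and in 0 of the 10 others. Ttr took 0.627% of the summed FPKM in Alc UA, 0.940% in Alc and 1.17% in Ctrl, and its median rank among all genes was 23 in Alc UA, 12 in Alc and 9 in Ctrl. The ratio was computed after the values of both genes were seen and was not tested.

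**Figure D2:**
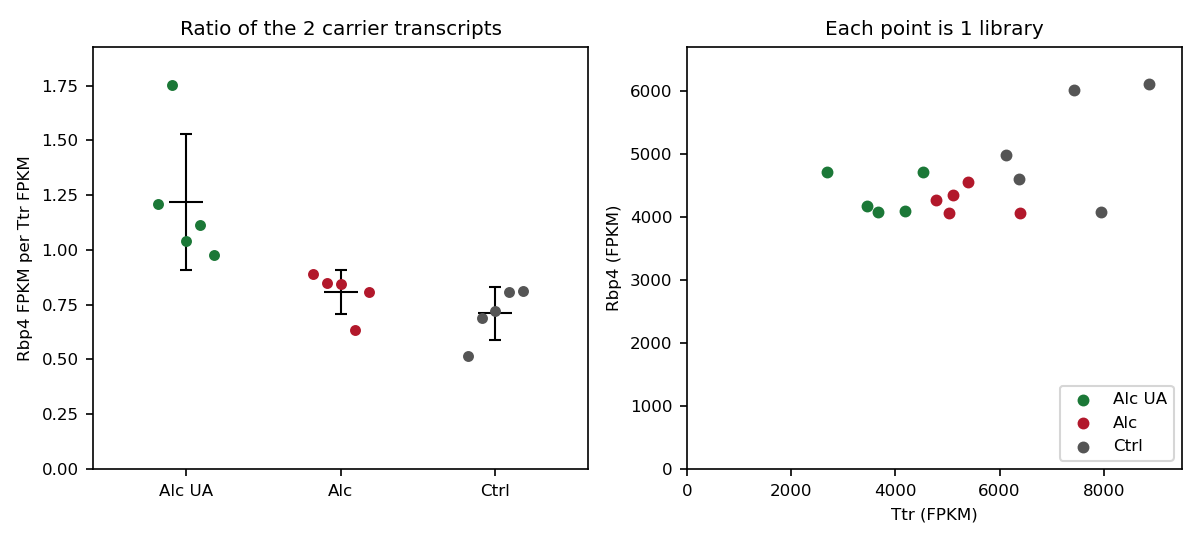
Left, Rbp4 FPKM divided by Ttr FPKM in each library, with a bar at the group mean and whiskers of 1 SD. Right, Rbp4 against Ttr in FPKM with 1 point per library, where the Alc UA libraries lie farthest left, at 2691 to 4537 FPKM of Ttr, while their Rbp4 spans 4077 to 4717.

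Lrat makes the retinyl esters that stellate cells store. It was weakly expressed, at 1.89, 3.88, 1.97, 3.18 and 2.33 FPKM in Alc UA, 2.04, 1.82, 1.98, 4.81 and 3.70 in Alc, and 2.55, 2.55, 5.82, 2.24 and 1.98 in Ctrl. The groups overlapped throughout, and in each group 1 or 2 libraries stood above the rest. The log2 fold change was -0.10 ± 0.24 in Alc UA against Ctrl, -0.05 ± 0.24 in Alc against Ctrl and -0.05 ± 0.24 in Alc UA against Alc (limma adjusted p = 0.761, 0.889 and 0.980), and its sign depended on the scaling. The summed level of 14 other stellate cell markers was highest in Ctrl 3, at 605 FPKM, which also held the highest Lrat. It was 318 in Alc UA 2, 308 in Alc 4 and 287 in Alc 5, the next libraries in Lrat. It was also 349 in Ctrl 1, where Lrat was at 2.55 FPKM, and the lowest sum, 139, was in Alc UA 3. In Ctrl 1, Dcn was at 156.68 FPKM and Ecm1 at 104.13, so abundant markers carried much of the sum. Ranges by group were 139 to 318 in Alc UA, 183 to 308 in Alc and 200.3 to 605 in Ctrl, none of the 14 was at 0 in every library, and 2 of 14 were lower in each comparison with Ctrl (Lhx2 in both). The count in Alc was 0 without Alc 1, 2 or 5 or without Ctrl 1, 2, 3 or 4, 1 without Alc 3, Alc 4 or Alc UA 1, and 3 without Ctrl 5. In Alc UA it was 1 without Alc UA 3 or 5 or Ctrl 1 or 3 and 4 without Alc UA 2 or Ctrl 5. With libraries scaled to the same sum it was 0 in Alc and 1 in Alc UA. Cholangiocyte marker sums were also highest in Ctrl 3, at 201 FPKM, followed by 113 in Ctrl 1 and 103 in Alc 4. The part of these cells in the Lrat values was not tested.

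**Figure D3:**
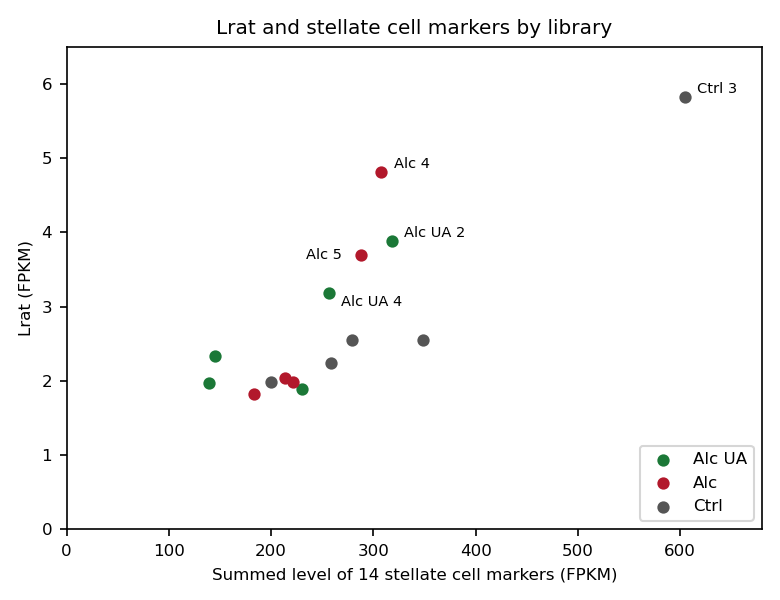
Lrat in FPKM against the summed FPKM of 14 stellate cell markers, with 1 point per library and both axes linear from 0. Ctrl 3 lies farthest up and right, at 5.82 FPKM of Lrat and a sum of 605.

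Among the oxidoreductases, Rdh7 was the most abundant. It belongs to a cluster of closely related microsomal short-chain dehydrogenases on chromosome 10 that act on retinol and on steroids. It was at 703, 724, 771, 851 and 759.8 FPKM in Alc UA, 827, 849.65, 924, 858 and 884 in Alc, and 803, 789, 858, 769.5 and 964 in Ctrl. Alc UA held the 3 lowest libraries and Ctrl 5 the highest, and all groups overlapped. The log2 fold change was -0.13 ± 0.09 in Alc UA against Ctrl (limma adjusted p = 0.268), 0.06 ± 0.09 in Alc against Ctrl (0.658) and -0.19 ± 0.09 in Alc UA against Alc (0.822).

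The neighbours of Rdh7 in that cluster, Rdh1, Rdh9, Rdh16, Rdh16f2 and Rdh19, have coding sequences identical to it at 85.29% to 87.95% of aligned bases (GENCODE M21), so reads could be shared among them in ways the table does not show. Beside them, Rdh11, Dhrs3 and Dhrs4 were 61.64% to 65.05% identical to Rdh7. The 5 neighbours together were at 193 ± 23.2 FPKM in Alc UA, 239 ± 12.4 in Alc and 126 ± 17.6 in Ctrl (SD, n = 5 each). Of the FPKM summed over Rdh7 and these 5 neighbours, Rdh7 made up 79.8% ± 2.22 in Alc UA, 78.4% ± 1.16 in Alc and 86.9% ± 0.67 in Ctrl. Other genes beside Rdh7 on the chromosome, Sdr9c7 and Hsd17b6 among them, were not part of that sum. The share was 76.1% to 81.9% in Alc UA, 77.2% to 79.9% in Alc and 86.1% to 87.8% in Ctrl, and Ctrl did not overlap with either alcohol group. It is made from the same values as the sums of the neighbours and was not tested. Rdh16, an oxidoreductase of all-trans-retinol and of steroids, rose in both alcohol groups. It was at 97.6, 90.2, 82.5, 77.8 and 82.8 FPKM in Alc UA, 72.9, 84.6, 58.0, 117 and 101 in Alc, and 51.4, 38.5, 49.1, 35.3 and 61.0 in Ctrl. Its log2 fold change was 0.88 ± 0.17 in Alc UA against Ctrl (limma adjusted p = 0.00133) and 0.85 ± 0.17 in Alc against Ctrl (0.00247), and Alc 3 was the one alcohol library below Ctrl 5.

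Dhrs3 reduces all-trans-retinal back to retinol. It was at 45.6, 38.6, 49.1, 52.8 and 49.7 FPKM in Alc UA, 52.1, 62.5, 75.2, 62.2 and 58.2 in Alc, and 90.5, 82.8, 78.7, 81.0 and 73.7 in Ctrl. Every Alc UA library lay below every Ctrl library, Alc 3 alone among the Alc libraries exceeded a Ctrl library (Ctrl 5), and Alc UA and Alc overlapped only through Alc 1 and Alc UA 4. Means were 47.2 ± 5.43 in Alc UA, 62.0 ± 8.47 in Alc and 81.4 ± 6.15 in Ctrl (SD, n = 5 each). Dhrs3 fell in Alc UA against Ctrl, by 0.78 on the log2 scale (log2 fold change -0.78 ± 0.11, -0.62 relative to the median, limma adjusted p = 0.000105), in all 26 settings. It fell in Alc against Ctrl as well (-0.39 ± 0.11, -0.27 relative to the median, limma adjusted p = 0.0111). That second call was lost with median-of-ratios factors (-0.22, adjusted p = 0.121) and with libraries scaled to the same sum (-0.25, adjusted p = 0.0758). The Alc UA difference from Alc was -0.39 ± 0.11 and did not pass over all genes (limma adjusted p = 0.528, unadjusted p = 0.00212). Without Ctrl 1 and Ctrl 5 the values were -0.77 in Alc UA against Ctrl (adjusted p = 0.000359) and -0.39 in Alc against Ctrl (0.0251).

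Rdh11, an enzyme of the endoplasmic reticulum that reduces retinal, was at 5.79, 3.56, 5.23, 4.27 and 5.31 FPKM in Alc UA, 5.27, 6.08, 4.23, 7.49 and 7.38 in Alc, and 6.57, 7.57, 6.27, 5.75 and 6.82 in Ctrl. Alc UA held the lowest library, Alc ranged from 4.23 to 7.49, and Alc UA overlapped with Ctrl only through Alc UA 1 and Ctrl 4. Rdh11 fell in Alc UA against Ctrl (log2 fold change -0.39 ± 0.14, -0.23 relative to the median, limma adjusted p = 0.0329). This call was lost in 10 of 26 settings, at adjusted p from 0.0515 to 0.375. They included all 3 other scalings, the exclusion of Ctrl 1 (adjusted p = 0.0543), Ctrl 2 (0.0794), Alc UA 2 (0.0868) or Alc UA 4 (0.0690), and that of Ctrl 1 with Ctrl 5 (0.0870). The fold change was -0.12 ± 0.14 in Alc against Ctrl (limma adjusted p = 0.532) and -0.27 ± 0.14 in Alc UA against Alc (0.825).

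Dhrs4, a peroxisomal carbonyl reductase that acts on retinal, was at 128, 142, 141, 167 and 150.1 FPKM in Alc UA, 128, 134, 146.5, 172 and 142 in Alc, and 110.02, 182, 178, 141 and 149.6 in Ctrl. Ctrl held both the lowest and the highest library, and the groups overlapped throughout. The log2 fold change was -0.05 ± 0.13 in Alc UA against Ctrl, -0.06 ± 0.13 in Alc against Ctrl and 0.01 ± 0.13 in Alc UA against Alc (limma adjusted p = 0.794, 0.745 and 0.994). Its sign depended on the scaling, and with library weights it passed in Alc against Ctrl (-0.27, adjusted p = 0.0353).

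Cyp26a1 encodes the main hydroxylase that clears retinoic acid in liver. It was weakly expressed, at 1.0, 0.78, 1.85, 3.20 and 2.59 FPKM in Alc UA, 2.30, 2.82, 2.88, 1.27 and 3.95 in Alc, and 1.05, 1.11, 1.21, 1.51 and 0.34 in Ctrl. Alc overlapped with Ctrl only through Alc 4, and Alc UA spread across the ranges of both. Means were 1.88 ± 1.03 in Alc UA, 2.64 ± 0.97 in Alc and 1.04 ± 0.43 in Ctrl (SD, n = 5 each). Cyp26a1 rose in Alc against Ctrl (log2 fold change 0.82 ± 0.25, 0.94 relative to the median, limma adjusted p = 0.0205). The call was lost without Alc 5 (0.70, adjusted p = 0.0601) and without Ctrl 1 and Ctrl 5 (0.64, adjusted p = 0.0863). Leaving out Alc 5 also took the count of members that passed in Alc against Ctrl to 2, since the Ttr call was lost there too. The fold change was 0.45 ± 0.25 in Alc UA against Ctrl (limma adjusted p = 0.155), which passed after quantile normalization (0.64, adjusted p = 0.0475), and -0.37 ± 0.25 in Alc UA against Alc (0.846). At levels this low the number of reads behind a value is small, and the depth of the libraries is unknown.

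Rxra was at 115, 103, 114, 119 and 126 FPKM in Alc UA, 115, 105, 112, 105 and 109 in Alc, and 58.4, 78.3, 89.2, 68.4 and 86.9 in Ctrl. All 10 libraries of the alcohol groups lay above all 5 Ctrl libraries, and Alc UA and Alc overlapped. Means were 115 ± 8.34 in Alc UA, 109 ± 4.23 in Alc and 76.2 ± 12.9 in Ctrl (SD, n = 5 each). Rxra rose in Alc UA against Ctrl (log2 fold change 0.60 ± 0.11, 0.77 relative to the median, limma adjusted p = 0.000634) and in Alc against Ctrl (0.53 ± 0.11, 0.65 relative to the median, limma adjusted p = 0.00223). Both calls were kept in all 26 settings, with fold changes of 0.51 to 0.85 and 0.44 to 0.70, and without Ctrl 1 and Ctrl 5 the values were 0.55 and 0.48. Between Alc UA and Alc the fold change was 0.08 ± 0.11 (limma adjusted p = 0.920). Groups that did not overlap were found in 3 members in Alc UA against Ctrl (Ttr, Dhrs3 and Rxra), where 20.2% of all tested genes showed this, and in 1 member in Alc against Ctrl (Rxra), where 15.8% did.

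**Figure D4:**
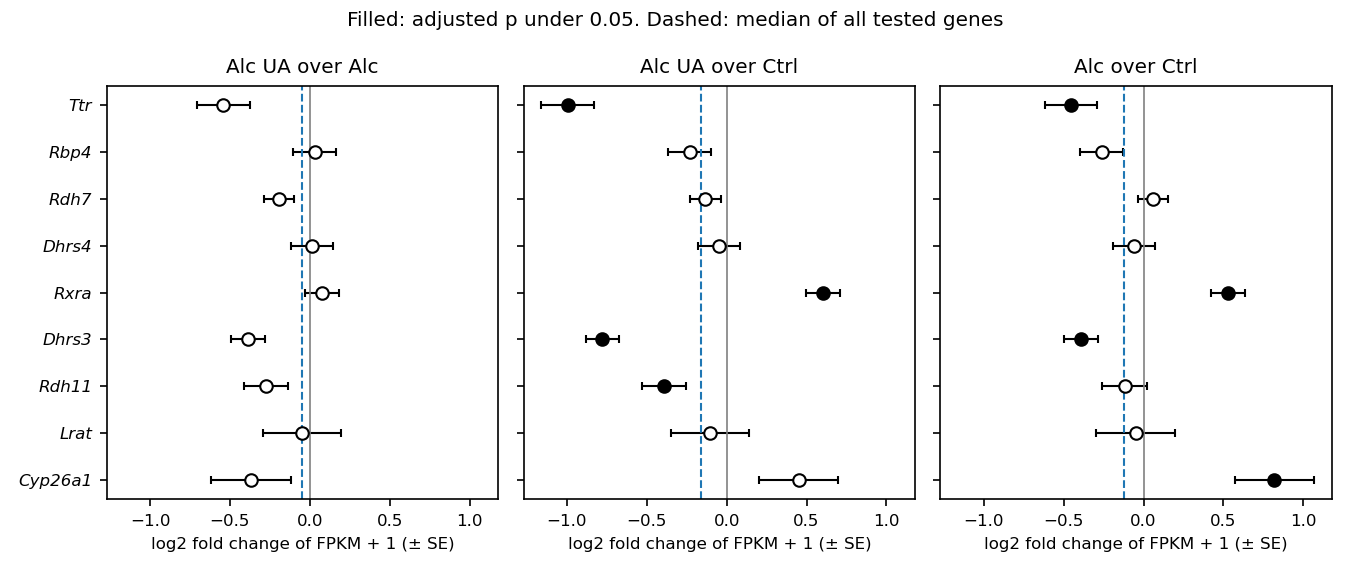
Log2 fold changes of FPKM + 1 with their SE for the 9 genes in Alc UA over Alc, Alc UA over Ctrl and Alc over Ctrl, with filled points at an adjusted p under 0.05 and a dashed line at the median of all tested genes. Rxra lies at 0.60 and 0.53 in the comparisons with Ctrl and at 0.08 in Alc UA over Alc, where no point is filled.

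Rxra was the RXR transcript that made up most of the family, 89.1% ± 1.31 of the summed FPKM of Rxra, Rxrb and Rxrg in Alc UA, 88.5% ± 0.65 in Alc and 81.2% ± 3.36 in Ctrl (SD, n = 5 each). The share was 87.8% to 90.9% in Alc UA, 87.9% to 89.5% in Alc and 75.5% to 84.3% in Ctrl, with no overlap between Ctrl and the alcohol groups. It is made from the same Rxra values as above, so it is not a separate result, and it was not tested. Over all tested genes, 10.6% rose and 22.8% fell in Alc against Ctrl, and 10.5% and 32.1% in Alc UA against Ctrl. Of the 5 other retinoid receptors, 0 rose and 2 fell in each comparison with Ctrl. For Alc against Ctrl the falls were 0 without Alc 1 or 5 or Ctrl 1, 2 or 3 and 1 without Alc 2 or 4 or Ctrl 4, and in Alc UA against Ctrl they were 4 without Ctrl 5. Rarg, a receptor of retinoic acid, averaged 2.18 FPKM in Alc UA, 2.88 in Alc and 4.91 in Ctrl, with log2 fold changes of -0.84 ± 0.19 in Alc UA against Ctrl (limma adjusted p = 0.00317) and -0.56 ± 0.19 in Alc against Ctrl (0.0341). Ctrl 5, at 2.11 FPKM, lay below the other Ctrl libraries, at 4.62 to 6.29. Rxrb averaged 11.4 FPKM in Alc UA, 11.1 in Alc and 13.2 in Ctrl and fell in Alc against Ctrl (-0.23 ± 0.08, limma adjusted p = 0.0355), and Rxrg averaged 2.68 FPKM in Alc UA, 3.08 in Alc and 4.08 in Ctrl and fell in Alc UA against Ctrl (-0.47 ± 0.13, limma adjusted p = 0.0105). Rara (0.09 ± 0.16, limma adjusted p = 0.693), Rarb (-0.18 ± 0.14, 0.325) and Rxrg (-0.30 ± 0.13, 0.0862) did not pass in Alc against Ctrl. Rarb passed without Ctrl 5 (-0.32, limma adjusted p = 0.0188) and without Ctrl 1 and 5 (-0.31, 0.0483), and Rxrg with library weights (-0.42, 0.0042). The Alc against Ctrl calls of Rarg and Rxrb were lost in 10 and 12 of 26 settings, Rarg without Alc 1 or 5 or without Ctrl 1, 2, 3 or 4 (adjusted p from 0.05905 to 0.0895) and Rxrb without Alc 1, 2, 4 or 5 or without Ctrl 1, 2 or 3 (from 0.0543 to 0.0831).

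Receptors that pair with Rxra were listed separately. Of 10 tested, 5 rose and 0 fell in Alc against Ctrl, while 3 rose and 2 fell in Alc UA against Ctrl. Among all tested genes, 10.6% rose and 22.8% fell in Alc against Ctrl, and 10.5% and 32.1% in Alc UA against Ctrl. In the settings other than 1 library left out, 2 to 5 of these 10 receptors rose and 0 to 1 fell in Alc against Ctrl. Their rises in Alc against Ctrl were 2 without Alc 5 or Ctrl 4 and 3 without Alc 1, 2 or 4 or Ctrl 2, 3 or 5 (without Ctrl 5, 2 also fell). Without Ctrl 4, 2 rose and 1 fell in Alc UA against Ctrl. Ppara, the fatty acid receptor that induces peroxisomal and mitochondrial oxidation, averaged 76.1 FPKM in Alc UA, 68.2 in Alc and 39.9 in Ctrl. Every library of both alcohol groups lay above every Ctrl library, with log2 fold changes of 0.93 ± 0.14 in Alc UA against Ctrl (limma adjusted p = 0.000243) and 0.77 ± 0.14 in Alc against Ctrl (0.0013). Thrb, the main thyroid hormone receptor of liver, also rose in both (0.63 ± 0.12, limma adjusted p = 0.00118, and 0.51 ± 0.12, 0.00596). Nr1i3, the xenobiotic receptor CAR, averaged 183 FPKM in Alc UA (239.2 in Alc UA 4 and at most 181 in the others), 214 in Alc and 152 in Ctrl and passed in Alc against Ctrl (0.55 ± 0.18, limma adjusted p = 0.0308), a call lost without Alc 1, 3 or 5 and without Ctrl 3, 4 or 5 (adjusted p from 0.0534 to 0.0832).

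Breakdown of retinoic acid is shared with Cyp26b1 and Cyp2c39, and these moved in opposite directions. Cyp26b1, a paralogue of Cyp26a1, was at 0.73, 0.45, 0.61, 1.13 and 1.40 FPKM in Alc UA, 0.35, 1.42, 1.17, 1.49 and 1.07 in Alc, and 7.46, 4.94, 5.92, 8.41 and 1.16 in Ctrl. Ctrl 5 lay within the alcohol groups and the other 4 Ctrl libraries far above them. Cyp26b1 fell in Alc UA against Ctrl (a log2 fold change of -1.68 ± 0.31, limma adjusted p = 0.000911) and in Alc against Ctrl (-1.52 ± 0.31, 0.00263). It moved with the sinusoidal endothelial markers, whose sums in Ctrl were also lowest in Ctrl 5, at 103, and between 198 and 295 in the other Ctrl libraries. Within Ctrl, the sums of stellate cell, lymphocyte, macrophage and cholangiocyte markers were lowest in Ctrl 5 as well, at 200.3, 9.05, 30.8 and 26.25 FPKM. Lymphocyte markers were also lower in Alc than in Ctrl (5 of 5 tested). The part of any of these cell types in the Cyp26b1 values was not tested. Cyp2c39, a cytochrome that hydroxylates retinoic acid in mouse liver, averaged 3.27 FPKM in Alc UA, 5.70 in Alc and 1.40 in Ctrl. Ctrl 1, at 3.65 FPKM, stood above the other Ctrl libraries, at 0.59 to 1.05. Cyp2c39 rose in Alc UA against Ctrl (0.90 ± 0.26, limma adjusted p = 0.0125) and in Alc against Ctrl (1.58 ± 0.26, 0.000631). Cyp26c1, which lies beside Cyp26a1 on chromosome 19, did not reach the filter on low values.

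The remaining genes of the pathway were taken from lists of carriage, esters and carotenoids, oxidoreductases and retinal oxidation. Over all the lists, 64 of 65 genes were in the table and 46 were tested, so counts over them leave out weakly expressed genes. In Alc against Ctrl, 14 rose and 7 fell, in Alc UA against Ctrl, 9 rose and 9 fell, and in Alc UA against Alc, 0 of 46 passed with limma, 7 of them at an unadjusted p under 0.05. Over all genes tested, 10.6% were higher and 22.8% lower in Alc against Ctrl, and 10.5% and 32.1% in Alc UA against Ctrl. Scaling moved the balance within the lists as well. With libraries scaled to the same sum, 17 were higher and 1 lower in Alc against Ctrl and 10 and 7 in Alc UA against Ctrl. With median-of-ratios factors the splits were 17 and 2 and, in Alc UA, 14 and 4, and after quantile normalization 16 and 3 and, in Alc UA, 11 and 5. With library weights they were 14 and 11 in Alc and 11 and 12 in Alc UA, and with the replicate block 9 and 8 in Alc and 9 and 11 in Alc UA. The total of 21 in Alc against Ctrl was 10 without Alc 5 (8 higher, 2 lower), 13 without Ctrl 3 (9 and 4) and 12 without Ctrl 4 (9 and 3). Their median log2 fold changes were -0.12 in Alc UA against Alc, -0.10 in Alc UA against Ctrl and 0.04 in Alc against Ctrl, beside the -0.05, -0.16 and -0.12 of all genes.

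Of the 12 oxidoreductases tested besides the members, 6 rose and 2 fell in Alc against Ctrl and 3 rose and 3 fell in Alc UA against Ctrl. The rises in Alc against Ctrl were 3 without Alc 5 or Ctrl 3, and those in Alc UA against Ctrl were 1 without Alc UA 4 or without Ctrl 4. Dhrs7, a retinoid and steroid dehydrogenase, rose in Alc UA against Ctrl (40.3 FPKM in Alc UA and 30.3 in Ctrl, a log2 difference of 0.41 ± 0.13, limma adjusted p = 0.0199) and in Alc against Ctrl (50.6 FPKM in Alc, 0.73 ± 0.13, 0.00105). Rdh14 fell in both (-0.46 ± 0.10, limma adjusted p = 0.00226, and -0.43 ± 0.10, 0.0054), with the Alc call lost when libraries were scaled to the same sum (-0.30, adjusted p = 0.0508). Of the 5 tested genes on the list of retinal oxidation, 0 passed in either comparison with Ctrl by limma. At an unadjusted p under 0.05 there was 1 in Alc against Ctrl and 0 in Alc UA against Ctrl. Aldh1a1, the main retinal dehydrogenase of the liver, averaged 628 FPKM in Alc UA, 753 in Alc and 484 in Ctrl (0.65 ± 0.25 in Alc against Ctrl, limma adjusted p = 0.0550), and passed in 8 of 26 settings. Aldh8a1 (0.16 ± 0.08, limma adjusted p = 0.137) and Aox1 (-0.36 ± 0.25, 0.276) did not pass in Alc against Ctrl. Aldh8a1 passed with median-of-ratios factors (0.33, limma adjusted p = 0.0459) and with the same sum (0.30, 0.0298), and Aox1 with library weights (-0.76, 0.0102).

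Of 9 genes of ester and carotenoid handling, 2 rose and 0 fell in both comparisons with Ctrl. Lipe, hormone-sensitive lipase, which also cleaves retinyl esters, averaged 8.97 FPKM in Alc UA, 9.08 in Alc and 5.97 in Ctrl (log2 fold change 0.52 ± 0.10 in Alc UA against Ctrl, limma adjusted p = 0.00089, and 0.54 ± 0.10 in Alc against Ctrl, 0.00113). Scarb1, a receptor that takes up lipoprotein lipids and carotenoids, averaged 82.6 FPKM in Alc UA, 84.85 in Alc and 55.7 in Ctrl (0.57 ± 0.15, limma adjusted p = 0.00732, and 0.59 ± 0.15, 0.00886), with Alc 4, at 55.46 FPKM, below the other Alc libraries. Bco2, a carotenoid oxygenase, had a log2 difference of 0.24 ± 0.13 in Alc against Ctrl (limma adjusted p = 0.187). It passed in 5 of 26 settings, which were the quantile, median-of-ratios and same-sum scalings and those without Ctrl 1 or without Ctrl 1 and 5 (0.34 to 0.39, adjusted p from 0.0219 to 0.0474). Of 3 tested genes of carriage, 2 fell in Alc against Ctrl and 1 in Alc UA against Ctrl. Stra6l, a retinol-binding protein receptor of liver and intestine, averaged 23.8 FPKM in Alc UA, 28.8 in Alc and 35.65 in Ctrl. It fell in Alc UA against Ctrl (-0.56 ± 0.10, limma adjusted p = 0.000796) and in Alc against Ctrl (-0.29 ± 0.10, 0.0378). Fabp5, a fatty acid and retinoic acid binding protein, fell in Alc against Ctrl (-1.25 ± 0.44, limma adjusted p = 0.0373). The Alc against Ctrl calls of Stra6l and Fabp5 were lost under all 3 other scalings, Stra6l also without Alc 2, 4 or 5 or Ctrl 1, 3 or 4 (adjusted p from 0.0609 to 0.09735) and Fabp5 without Alc 1, 3 or 5 or Ctrl 4 or 5 (from 0.0511 to 0.0900).

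**Figure D5:**
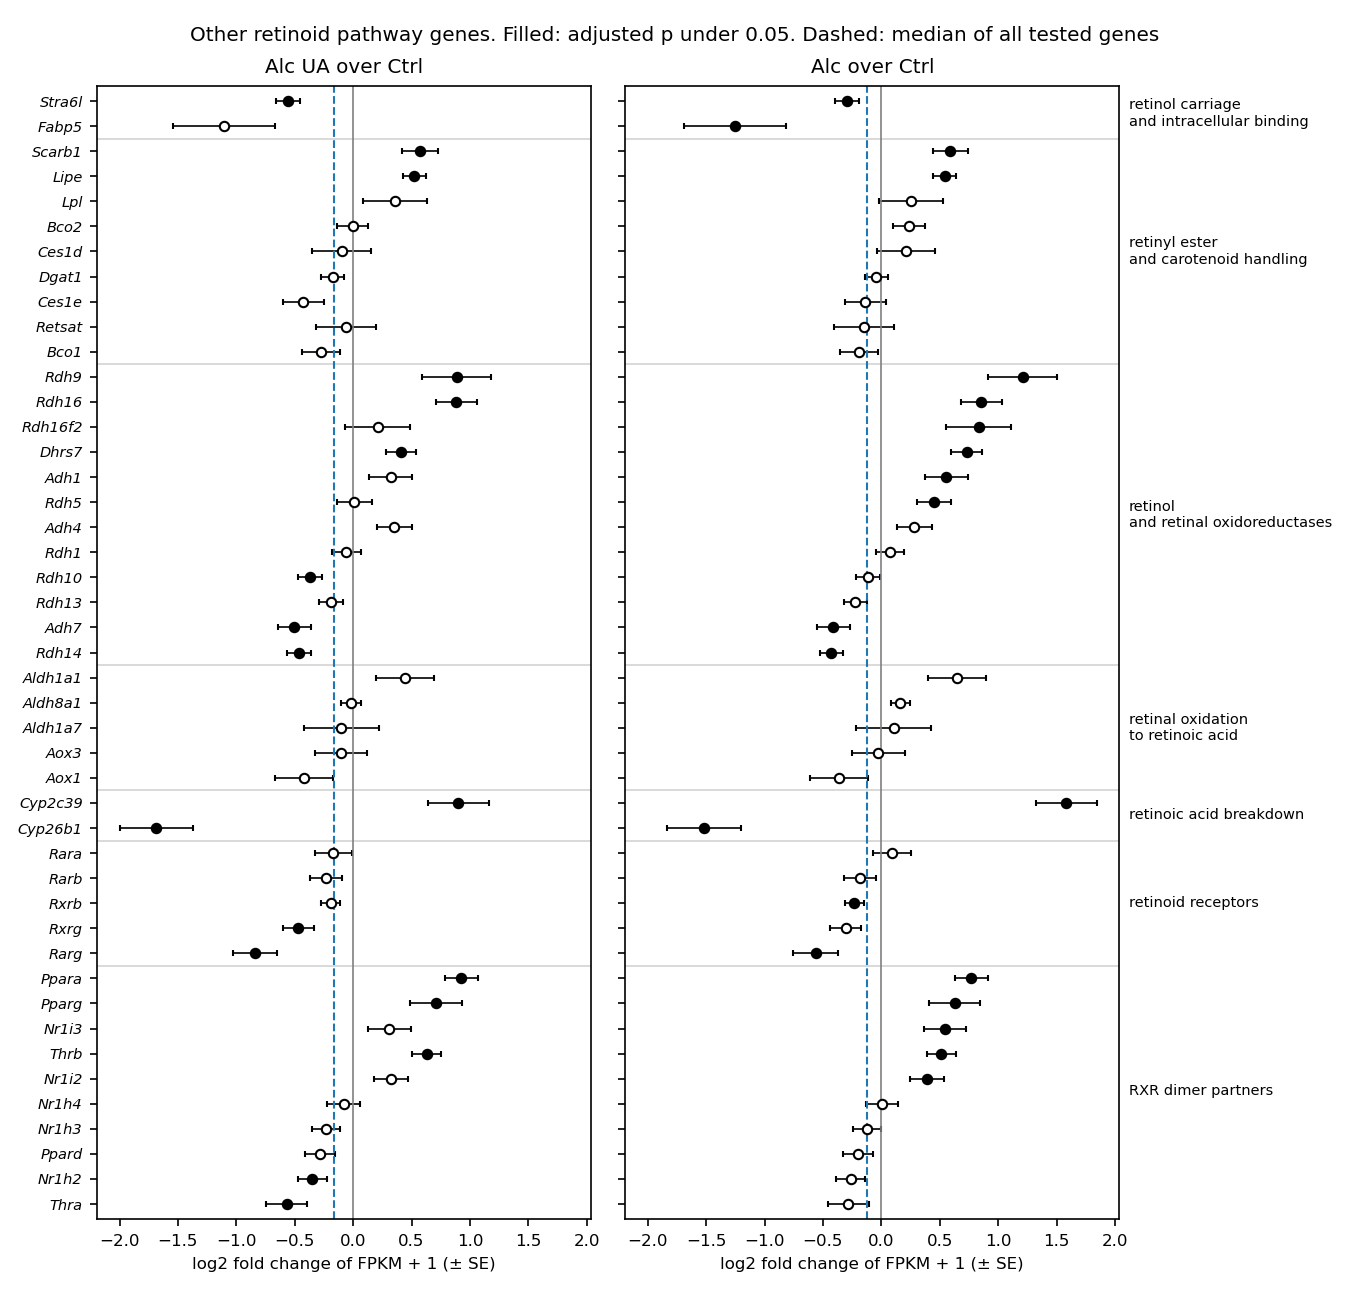
Log2 fold changes of FPKM + 1 with their SE for the tested genes of the other retinoid lists that are reported here, in Alc UA over Ctrl and Alc over Ctrl, ordered within each list by the change in Alc over Ctrl. Filled points have an adjusted p under 0.05, and the dashed line is the median of all tested genes; Cyp2c39 lies highest, at 1.58 in Alc over Ctrl, and Cyp26b1 lowest, at -1.52.

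For the 4 members that passed in Alc against Ctrl, the genes with the most similar profiles over the 15 libraries were listed by Pearson correlation of log2(FPKM + 1). All points share their library, the group differences are part of the values, and no test was made. Ttr was most like Leap2 (r = 0.966), Lsm10 (0.944) and Mrap (0.937), and Dhrs3 most like Lsm10 (0.954), with Ppdpf (0.945) also listed. Leap2, a liver peptide that antagonises the ghrelin receptor, averaged 29.5 FPKM in Alc UA, 59.2 in Alc and 112 in Ctrl, the same order as Ttr. Rxra was most like Stbd1 (0.965) and Slc25a48 (0.951), and Stbd1, which binds glycogen, averaged 54.1 FPKM in Alc UA, 52.4 in Alc and 28.15 in Ctrl. Cyp26a1 was most like Zfp970 (0.815), Inmt (0.808) and Tk1 (0.789). After subtraction of group means the correlation was 0.861 for Ttr with Leap2, 0.777 for Dhrs3 with Lsm10, 0.845 for Rxra with Stbd1 and 0.671 for Cyp26a1 with Zfp970. These pairs were picked for high correlation in the same libraries, so the choice itself raises these values.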

How the data were processed

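The authors deposited 1 table of FPKM values for 18510 gene symbols in 15 liver libraries. Per the labels' protocols, a phenol-chloroform extraction was followed by MGISEQ library preparation. The submitters' processing notes name DESeq, StringTie, RSEM 1.2.8, HISAT2 2.1.0 and Bowtie2 2.2.5 without saying what each did. Build, annotation and strandedness were looked for but not given in the sources used here. Counts were not analysed here, so the depth behind a value is unknown. Of the rows, 223 were at 0 in every library and 25 had symbols that read like dates. All 15 value columns matched a sample by name.

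FPKM were analysed as log2(FPKM + 1) with limma 3.58.1 in R 4.3.3, over genes at 1 FPKM or more in at least 5 libraries, with 1 model of the 3 groups, a mean trend in the prior, 12 residual degrees of freedom and Benjamini-Hochberg adjustment at 0.05. The procedure was also run on simulated data in which few genes changed. That run cannot show how it performs where many genes differ or where scaling moves the calls. Tables and figures were made with Python 3.11.15 and matplotlib 3.10.9. The alternatives were a pseudocount of 0.1, 2 other filters, 3 other scalings, library weights, no trend, only the groups compared, the replicate number as a block, each library left out, and Ctrl 1 and Ctrl 5 left out together, 26 settings in all. Promoter windows are from RefSeq on GRCm38.p6, and coding identity is from GENCODE M21.

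The members and the lists of other retinoid genes and of cell type and clock markers were chosen with earlier results of these data known. Named genes were all members, every tested retinoid receptor, up to 3 genes per other list by the smallest p in Alc against Ctrl, and for each member that passed in Alc against Ctrl the 3 genes with the highest correlation. A few genes that this rule names are not reported here. Marker lists were given by counts and summed level.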

Additional observations from a re-analysis of the deposited data

Results flagged for a closer look

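The lowest or highest library of each group of 5 was compared with the rest for 30 genes, in 90 groups, and chance alone sets a library apart in about 1 of 20 groups. Lrat in Ctrl 3 was at 5.82 FPKM, while the other Ctrl libraries lay between 1.98 and 2.55. Scarb1 in Alc 4 was at 55.46 FPKM, below the 86.72 to 99.4 of the other Alc libraries. Cyp2c39 in Ctrl 1 was at 3.65 FPKM, above the 0.59 to 1.05 of the other Ctrl libraries. Nr1i3 in Alc UA 4 was at 239.2 FPKM, above the 162.82 to 181.35 of the other Alc UA libraries.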

How the results depend on the processing

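Over the single-gene comparisons and all settings, 1103 values kept their direction and their side of the threshold, 85 lost a call, 23 gained one and 37 changed sign. The calls of Rxra in both comparisons with Ctrl, and of Ttr and Dhrs3 in Alc UA against Ctrl, were kept in all 26 settings. The number of genes that passed in Alc against Ctrl was 5870 with library weights, against 3654. The number of members that passed in Alc against Ctrl was 2 with libraries scaled to the same sum, with median-of-ratios factors, and without Ctrl 1 and Ctrl 5, against 4, and it was 2 without Alc 5. It was 6 with library weights, where Rbp4 (-0.43, limma adjusted p = 0.00287) and Dhrs4 (-0.27, 0.0353) also passed. In Alc UA against Alc the number of genes was 2 with libraries scaled to the same sum, 3 with library weights, 0 with only the 2 groups, 0 with the replicate block and 2 without Ctrl 1 and Ctrl 5, against 1. Leaving out 1 library gave 1 to 5 (2 without Alc 1, Alc UA 1 or Ctrl 3, 4 without Ctrl 1 and 5 without Alc UA 4).

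The signs that changed were of differences that did not pass. Between Alc UA and Alc, the log2 fold change was -0.30 (quantile) and -0.022 (same sum) for Rbp4, 0.0029 (median-of-ratios) and 0.036 (library weights) for Lrat, and -0.040 (same sum) for Dhrs4. In Alc UA against Ctrl it was 0.015 (median-of-ratios) for Rbp4, 0.092 (quantile) and 0.077 (median-of-ratios) for Lrat, 0.11 (median-of-ratios) for Rdh7, and 0.061 (quantile), 0.20 (median-of-ratios) and 0.039 (same sum) for Dhrs4. Between Alc and Ctrl it was 0.011 (quantile) for Rbp4, 0.097 (quantile), 0.074 (median-of-ratios) and 0.050 (same sum) for Lrat, 0.0056 (quantile), 0.027 (median-of-ratios) and 0.0025 (same sum) for Rdh11, and 0.11 (median-of-ratios) and 0.079 (same sum) for Dhrs4. With 1 library left out, the fold change of Lrat ran from -0.16 to 0.11 in Alc UA against Alc, from -0.21 to 0.11 in Alc UA against Ctrl and from -0.21 to 0.16 in Alc against Ctrl. That of Dhrs4 ran from -0.037 to 0.077, from -0.16 to 0.024 and from -0.17 to 0.011 in the same 3 comparisons. The cause was not tested.

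Libraries of the same replicate number correlated between -0.30 and 0.29 over 15 pairs, and a library correlated best with its own number in 5 of 30 checks. These checks showed no pairing by number, and with 5 libraries per group they cannot decide whether one exists. With the replicate block the calls of Ttr (limma adjusted p = 0.0770) and Nr1i3 (0.0517) in Alc against Ctrl and of Rdh11 in Alc UA against Ctrl (0.0515) were lost. The depth is unknown, which limits what can be said of Cyp26a1, Lrat and other genes near 1 FPKM.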

Other observations

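Mup5, a major urinary protein gene, was the 1 gene that passed in Alc UA against Alc (log2 fold change 2.29 ± 0.28, limma adjusted p = 0.0041), and it is not a retinoid gene.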
